A study of Mus musculus with 21 samples.

Results

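The replication-dependent histone genes were taken as every gene whose symbol begins with Hist1h, Hist2h, Hist3h or Hist4h, without the pseudogene marked -ps. This gave 69 genes of 55335 gene identifiers: 6 for the linker histone H1, 20 for H2A, 18 for H2B, 12 for H3 and 13 for H4. Their identifiers and coordinates equal those of the GENCODE annotation of GRCm38. That annotation calls Hist1h2aj an unprocessed pseudogene, Hist1h2al a processed pseudogene and the others protein coding. RNA was sequenced from oocytes in 12 libraries and from granulosa cells, the somatic cells around the oocyte, in 9. The mice were ICR females: Young mice were 6 to 8 weeks old and Aged mice were 18 months old. The other 3 groups were Aged mice that had received human umbilical cord mesenchymal stem cells under the ovarian capsule. The paper followed the estrous cycle of such mice for 3 weeks after transplantation. It does not state when cells were collected for sequencing. The transplanted cells were Unsorted, LRP1high or LRP1low, the latter both sorted by the surface level of the receptor LRP1. Oocyte libraries numbered 3 Young, 2 Aged, 2 Aged + Unsorted, 3 Aged + LRP1high and 2 Aged + LRP1low, and granulosa cell libraries 1, 2, 1, 3 and 2. The labels give biological replicates without saying how many animals stand behind each, so p-values measure the spread between these libraries.

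Core histones H2A, H2B, H3 and H4 form the protein spool on which DNA is wound, and the linker histone H1 binds where DNA enters and leaves it. The replication-dependent genes lie in clusters and are transcribed mainly in S phase. Their mRNAs usually carry no poly(A) tail and end instead in a short stem-loop that is bound by the stem-loop binding protein Slbp. The libraries were made from RNA that the labels describe as polyA RNA, so the values concern the histone transcripts that such libraries hold. An oocyte arrested in meiosis does not replicate its DNA, and it stores histone mRNA and a set of histone variants for the embryo.

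The stem-loop shows which annotated transcripts run on past the usual end. A sequence of 16 bases with that form was found in an annotated transcript of 46 of the 69 genes, against 55 of all 55450 annotated genes (0.0992%). Below, capitals mark the stem-loop, small letters the 5 bases on either side, and coordinates are GRCm38. The genes were chosen to show the main forms and both kinds of transcript end.
Hist1h1c (chr13:23739507-23739532, + strand): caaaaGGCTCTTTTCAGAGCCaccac
Hist1h2ac (chr13:23683472-23683497, - strand): ccaaaGGCTCTTTTCAGAGCCcccac
Hist1h2ao (chr13:21810893-21810918, + strand): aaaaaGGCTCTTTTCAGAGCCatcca
Hist1h2bk (chr13:22036295-22036320, + strand): ccaaaGGCTCTTTTAAGAGCCactaa
Hist1h3g (chr13:23535884-23535909, + strand): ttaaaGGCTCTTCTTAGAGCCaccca
Hist1h4n (chr13:21831793-21831818, - strand): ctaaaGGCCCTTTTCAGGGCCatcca
Hist2h4 (chr3:96262934-96262959, - strand): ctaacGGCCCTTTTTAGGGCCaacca

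The form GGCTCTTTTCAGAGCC was shared by 26 genes and was the most frequent. The form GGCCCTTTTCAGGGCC was found in 7 genes, which are H4 genes. In 23 genes the annotated transcript ended within 100 bases of the stem-loop, as in Hist1h2bk (30 bases) and Hist1h2ao (31). In another 23 genes every transcript with the stem-loop ran on for over 100 bases, as in Hist1h1c (840 bases), Hist2h4 (1257) and Hist1h2ac (2010). In the last 23 genes no annotated transcript held the form, and 15 of these had no transcript of 420 bases or more, so their models may hold little beyond the coding part. Hist1h2bc belongs to this last class: its transcript of 1156 bases has 2 exons and no match to the form. In the 8 oocyte libraries described below as rich in oocyte RNA, the median of the genes' mean FPKM was 0.237 in the first class, 0.405 in the second and 0.486 in the last. The 3 classes thus had overlapping low levels, and the highest means were 2.09, 5.30 and 22.5 FPKM.

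Histone genes are near copies of each other. In 21 of the 69 genes over 50% of all 150-base stretches, the length of a read, also occurred in another of the 69, and in 18 none did. The values of Hist1h2ah (84.8% shared), Hist1h2ao (91.5%), Hist1h2ap (91.0%), Hist1h3h (90.5%) and Hist2h3b (73.7%) are therefore uncertain by gene. Hist1h2aa, Hist1h2al, Hist1h1a, Hist1h1c and Hist1h2ak shared none.

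The aligned sequence behind a library, from the ratio of coverage to FPKM, was 0.278 to 3.40 gigabases in oocytes and 0.335 to 1.49 in granulosa cells. FPKM is the number of fragments per kilobase of transcript, scaled to the size of the library, and 1 read on a gene of 500 bases was worth 0.0882 to 1.08 FPKM. A gene listed at 0 could stand, by a count of 3 reads, for up to 0.265 to 3.24 FPKM. Some libraries went against their labels. The median FPKM of 10 oocyte markers was 84.9 to 1001 in 8 oocyte libraries but 0.892 in Young 1, 11.6 in Aged 1 and 5.02 and 7.77 in the 2 Aged + LRP1low libraries. Those 4 libraries are called poor in oocyte RNA here and the other 8 rich, a split made after the values were seen. The single library labelled granulosa Aged + Unsorted had an oocyte marker median of 799.7, a granulosa cell marker median of 1.42 and a Spearman correlation of 0.931 with oocyte Aged + Unsorted 2 across 21767 genes. The granulosa cell marker median was 74.9 in granulosa Young, 21.4 in LRP1high 3 and 0.0482 to 1.93 in the other granulosa cell libraries.

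The summed FPKM of the 69 genes differed widely between libraries of a group. In oocytes it was 138, 5.75 and 96.4 in Young, 358 and 162 in the Aged group, 39.0 and 238 in Aged + Unsorted, 56.0, 76.4 and 4.32 in Aged + LRP1high, and 383 and 302 in Aged + LRP1low. The Aged + LRP1high sums lay below those of Aged and of Aged + LRP1low without overlap. Young and Aged + Unsorted spread over much of the range. Libraries also differed in how many of all genes reached 1 FPKM. These were 11026, 8071 and 4525 in Aged + LRP1high and 3135 in Young 2. In Aged they were 27970 and 11047, and in Aged + LRP1low 47920 and 38934. Aged 1 and both LRP1low libraries were also poor in oocyte RNA. The part of these differences in the sums was not tested. In granulosa cells the sum was 161 in Young, 18.9 and 16.7 in Aged, 237 in the library labelled Aged + Unsorted, 115, 23.3 and 39.5 in Aged + LRP1high, and 314 and 14.1 in Aged + LRP1low. The mean was 259.8 ± 139 (SD, n = 2) in Aged and 45.6 ± 37.2 (SD, n = 3) in Aged + LRP1high oocytes.

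**Figure D1:**
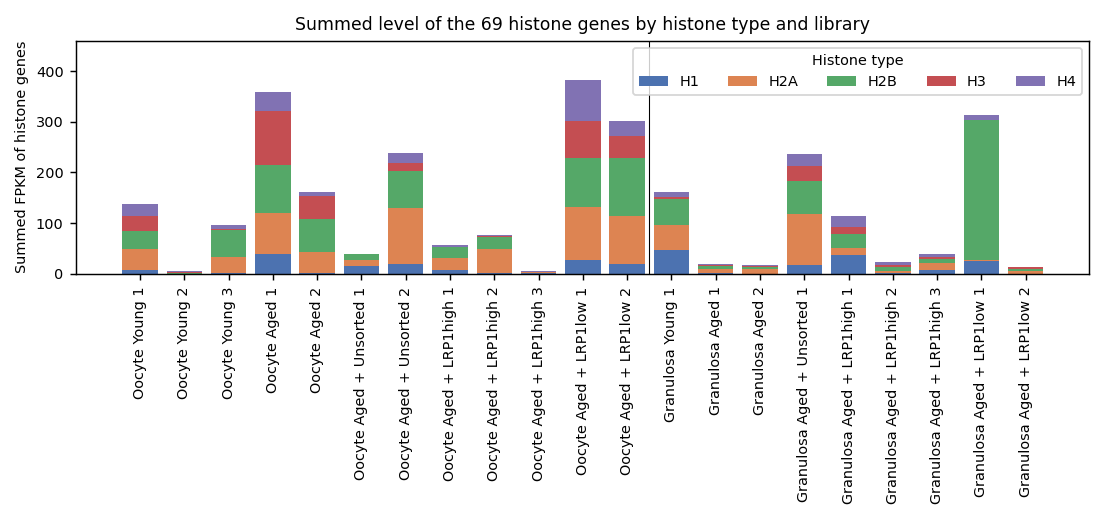
Summed FPKM of the 69 histone genes (vertical axis) in each of the 21 libraries, stacked by histone type, with oocyte libraries left of the line and granulosa cell libraries right of it. Oocyte sums run from 4.32 to 383, and in granulosa LRP1low 1 H2B genes make up 88.2% of the sum.

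A few abundant genes made up some of these sums, and many low ones the others. In the 8 oocyte libraries rich in oocyte RNA, 0 to 36 of the 69 genes reached 1 FPKM (median 7) and the 3 highest genes of a library held 42.8% to 87.1% of its sum. In the 4 poor libraries 41 to 64 genes reached 1 FPKM and the 3 highest held 9.89% to 30.2%. Olfactory receptor genes, 1108 genes that serve as a background of genes silent outside the nose, were also widely listed in 3 of the 4: at least 1 FPKM was listed for 97.1% and 83.6% of them in the LRP1low libraries and for 64.0% in Aged 1. In Young 1 it was 7.49%, beside 66.7% of the histone genes. Across the 8 rich libraries the share of olfactory receptor genes was 0.271% to 14.4%. In oocyte LRP1low 1, the extreme case, 92.8% of the histone genes and 86.6% of all genes reached 1 FPKM. Levels of single histone genes in these 3 libraries therefore stood beside a broad signal over silent genes, whose part in them was not tested.

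**Figure D2:**
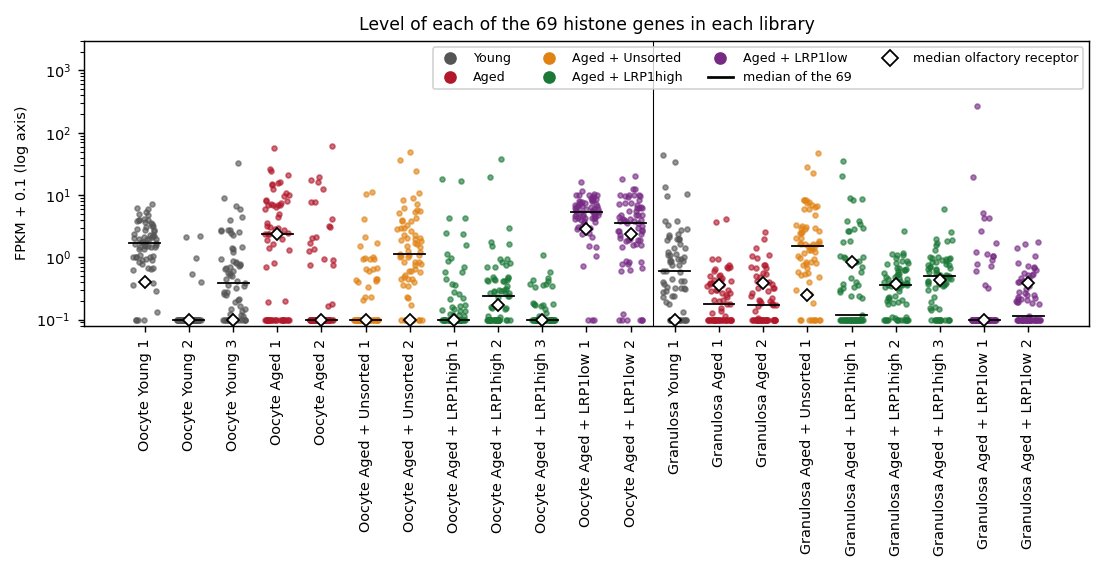
FPKM + 0.1 (log axis) of each of the 69 histone genes in each library, with points coloured by group, the median of the 69 as a bar and the median olfactory receptor gene as a diamond. The median histone gene is highest in oocyte LRP1low 1 (5.31 FPKM) and is 0 in 5 oocyte libraries.

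**Figure D3:**
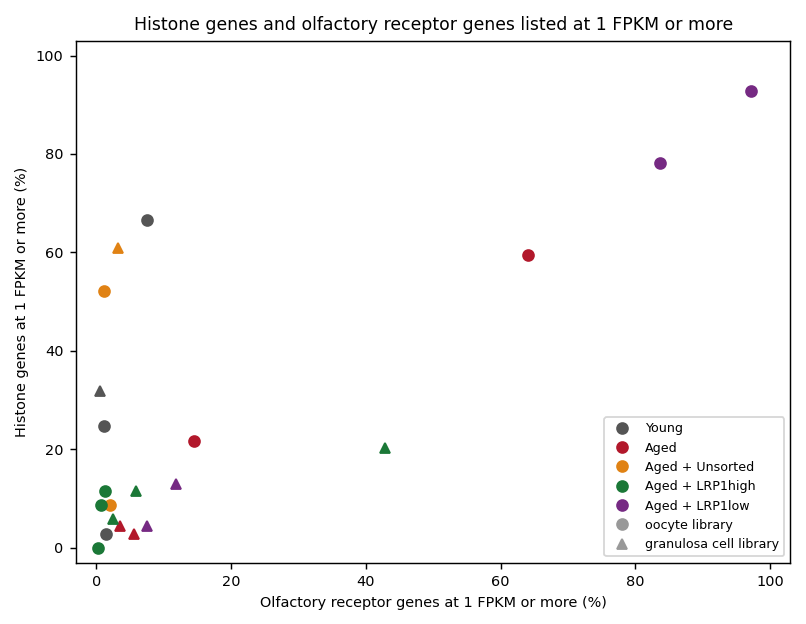
Share of the 69 histone genes (vertical axis) and of 1108 olfactory receptor genes (horizontal axis) listed at 1 FPKM or more, 1 point a library, with circles for oocytes and triangles for granulosa cells. Aged 1 and both LRP1low oocyte libraries lie at the right, at 64.0% to 97.1% of olfactory receptor genes, and Young 1 and Aged + Unsorted 2 reach 66.7% and 52.2% of histone genes with under 10% of olfactory receptor genes.

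H2B genes were led by Hist1h2bc, the gene with the highest mean of all 69 in both cell types. In oocytes it was at 1.44, 2.14 and 32.4 FPKM in Young, 0 and 60.4 in the Aged group, 10.2 and 36.9 in Aged + Unsorted, 18.3, 19.5 and 0 in Aged + LRP1high, and 7.04 and 9.86 in Aged + LRP1low. It reached 1 FPKM in 7 of the 8 rich libraries, and the groups overlapped. In granulosa cells it was at 44.3 in Young, 0.563 and 0 in Aged, 28.1 in the library labelled Aged + Unsorted, 20.2, 0.717 and 0.389 in Aged + LRP1high, and 269.7 and 0.697 in Aged + LRP1low. The value of 269.7 was 86.0% of the histone sum of that library, whose luteal cell marker median was 519. Hist1h2bk and Hist1h2bg, the next H2B genes by mean in oocytes, reached 1 FPKM in 3 of the 8 rich libraries each, with highest values there of 7.22 in Aged + Unsorted 2 and 5.82 in Young 3. Hist1h2ba, which encodes the germ cell H2B known as TH2B, was at 15.5 in Aged 1, 5.04 in Aged + Unsorted 2, 4.25 and 1.91 in LRP1low and at most 1.69 in the other oocyte libraries. Hist2h2bb was listed at 0 in all 12 oocyte libraries.

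H2A genes held the largest share of the sum in Aged + Unsorted 2 (46.4%) and in the 3 LRP1high oocyte libraries (42.2%, 60.0% and 71.1%), and also in Young 1 (29.8%) and LRP1low 1 (27.6%). Hist1h2aa, which encodes the germ cell H2A known as TH2A, was second among all 69 by its mean over the rich libraries. Its level was 0.850, 0 and 9.01 FPKM in Young, 0 and 0.0810 in the Aged group, 0 and 48.6 in Aged + Unsorted, 16.9, 0 and 0.991 in Aged + LRP1high, and 4.60 and 3.70 in Aged + LRP1low. It was thus high in 3 of the 8 rich libraries and at or near 0 in the others, and each of those 3 shared its group with a rich library at under 1 FPKM. These values rest on 374 reads of 150 bases in Aged + Unsorted 2, 138 in LRP1high 1 and 79.7 in Young 3. Among granulosa cell libraries it was at 47.0 in the one labelled Aged + Unsorted, 1.75 in LRP1high 3 and listed at 0 in the other 7. The processed pseudogene Hist1h2al was high in the same 3 rich libraries, at 6.61 in Young 3, 24.0 in Aged + Unsorted 2 and 4.20 in LRP1high 1, and was listed at 0 or 0.166 in the other 5. It also had 22.6 in the library labelled granulosa Aged + Unsorted and 7.07, 8.81 and 4.67 in Young 1 and the LRP1low libraries.

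Other H2A genes had single high libraries. Hist1h2ac reached 38.4 FPKM in LRP1high 2, on 1453 reads, and was at most 2.95 in the other 7 rich libraries. Hist1h2ao was at 13.2 and Hist1h2ap at 10.3 in granulosa Young. In the rich oocyte libraries their highest values were 5.65 and 8.96, both in Aged + Unsorted 2. Hist1h2ah, second by mean among H2A genes over all 12 oocyte libraries, is given with the comparisons.

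Among linker histone genes, Hist1h1c led in granulosa cells and Hist1h1a and Hist1h1c had the highest means over the rich oocyte libraries. Hist1h1c (H1.2) was at 33.8 FPKM in granulosa Young, 0.199 and 0 in Aged, 7.35 in the library labelled Aged + Unsorted, 35.2, 0.499 and 5.80 in Aged + LRP1high, and 19.1 and 0.172 in Aged + LRP1low. In oocytes it lay between 0 and 8.10. The 4 granulosa cell libraries with the highest values came from 4 groups, and the 3 lowest libraries from 2. Hist1h1a (H1.1) was at 11.0 and 10.6 in the 2 Aged + Unsorted oocyte libraries, 0 and 0 in Aged, 1.34, 0 and 0.149 in Young, 2.40, 0.594 and 0.0805 in Aged + LRP1high, and 4.25 and 0.748 in Aged + LRP1low. Both Aged + Unsorted libraries lay above every other oocyte library. Hist1h1t, the testis-specific linker histone, was at 7.12 in Aged 1, 4.15 and 9.06 in LRP1low and at most 0.389 in the 8 rich oocyte libraries. Hist1h1b was at 26.3 in Aged 1, 9.68 in granulosa Young and at most 0.878 in the rich oocyte libraries.

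**Figure D4:**
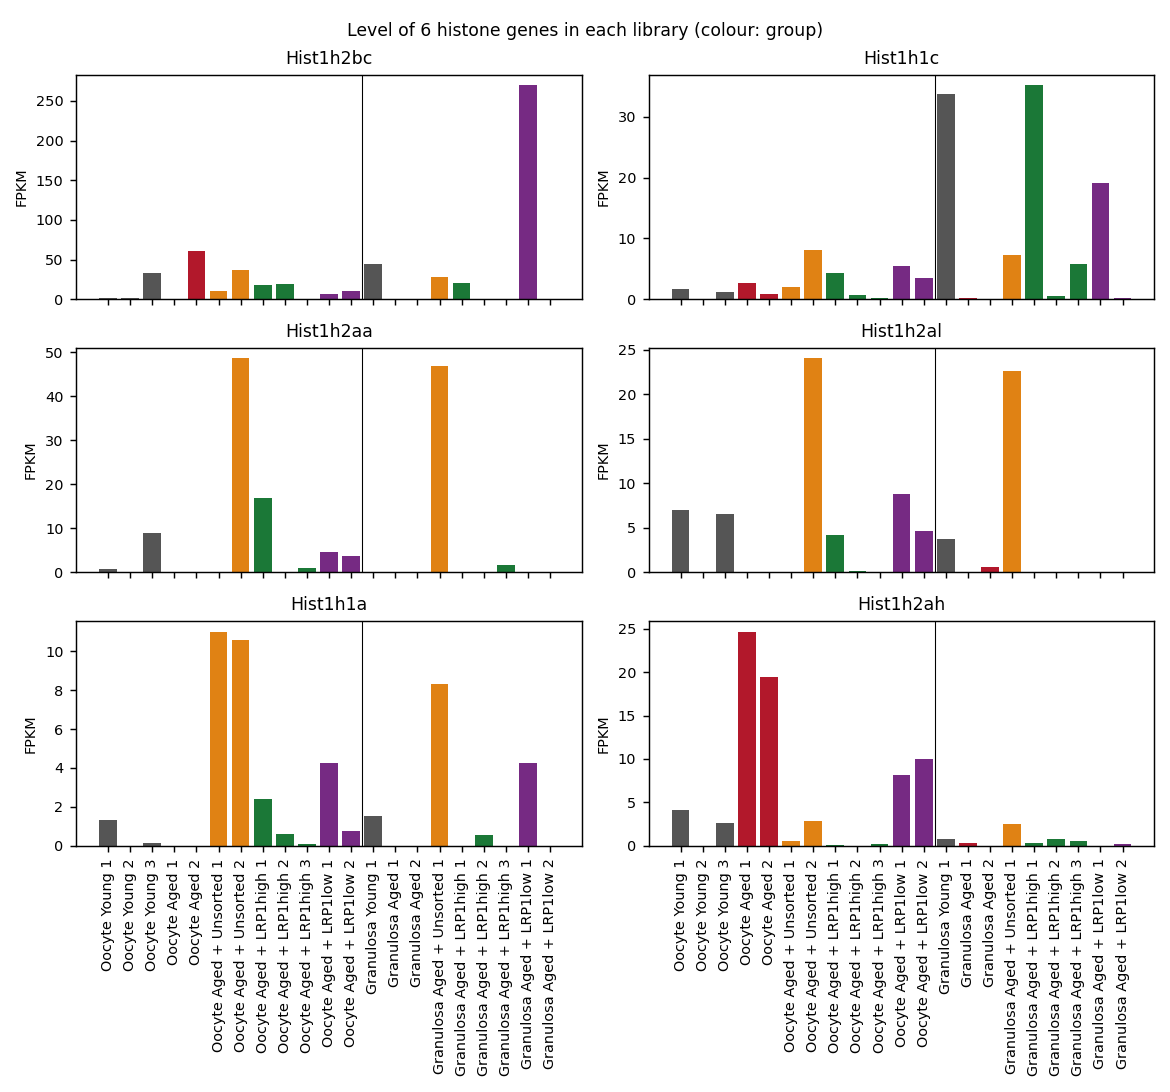
FPKM (vertical axes, each panel with its own scale) of Hist1h2bc, Hist1h1c, Hist1h2aa, Hist1h2al, Hist1h1a and Hist1h2ah in each library, coloured by group, with oocyte libraries left of the line. Among the rich oocyte libraries Hist1h2aa and Hist1h2al are high in the same 3, and Hist1h2ah is at 24.7 and 19.5 in Aged oocytes and at most 0.232 in Aged + LRP1high oocytes.

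H3 and H4 genes had their higher values in few of the rich oocyte libraries. In Aged 2, 3 H3 genes of the Hist2 cluster on chromosome 3 stood out: Hist2h3b at 16.3 FPKM, Hist2h3c1 at 12.5 and Hist2h3c2 at 17.0, 3 genes named after their values were seen, apart from Hist2h3c2. Of their 150-base stretches 73.7%, 30.8% and 59.4% also occurred in another of the 69 genes. Their values are therefore uncertain by gene and may not be separate observations. Hist2h3b was listed at 0 in every other oocyte library, while Hist2h3c2 was at 0 to 1.73 in the other 7 rich libraries and 2.70 to 9.84 in the poor ones. Hist1h3h was at 57.2 in Aged 1 and at most 3.17 in the rich libraries, and Hist1h3g at 5.35 in Aged + Unsorted 2 and at most 1.56 in the other rich ones. Of the 13 H4 genes, 7 stayed below 1 FPKM in all 8 rich libraries, beside 5 of 12 H3, 4 of 6 H1, 6 of 18 H2B and 3 of 20 H2A genes. Hist1h4k, highest by mean among H4 genes in oocytes, was at 16.3 in LRP1low 1 and at most 0.917 in the rich libraries. Hist1h4n was at 10 and 8.29 in LRP1low oocytes, 8.15 in granulosa LRP1high 1 and at most 0.131 in the rich oocyte libraries. Hist2h4 and Hist1h4i reached 1.98 and 2.33 at most in the rich libraries. The highest H4 values there, named after they were seen, were those of Hist1h4d in Aged 2 (7.56), Hist1h4a in Aged + Unsorted 2 (6.12) and Hist1h4h in Young 3 (4.28). In granulosa cells Hist1h4m was at 8.72 and Hist1h3c at 8.39 in LRP1high 1, and Hist1h4i at 4.26 in LRP1low 1.

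Hist1h2aa and Hist1h2ba lie head to head, 305 bases apart, as do Hist1h2ac and Hist1h2bc, 250 bases apart, so each pair shares a stretch of upstream DNA. The stretches are shown since the pairs hold Hist1h2bc, Hist1h2aa and Hist1h2ac, the 3 genes with the highest means over the rich oocyte libraries (22.5, 9.45 and 5.30 FPKM). Sequences are from RefSeq (GRCm38.p6) and end at the base before the RefSeq start of the gene named, and capitals mark the CCAAT box, the TATAAA box and the octamer ATTTGCAT on either strand.
Hist1h2aa (chr13:23934187-23934436, + strand): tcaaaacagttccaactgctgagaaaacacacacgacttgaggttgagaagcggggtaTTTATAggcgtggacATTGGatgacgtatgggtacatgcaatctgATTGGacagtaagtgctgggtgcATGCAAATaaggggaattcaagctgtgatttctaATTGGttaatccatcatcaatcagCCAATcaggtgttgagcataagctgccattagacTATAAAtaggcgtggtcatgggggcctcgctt
Hist1h2ac (chr13:23683960-23684198, - strand): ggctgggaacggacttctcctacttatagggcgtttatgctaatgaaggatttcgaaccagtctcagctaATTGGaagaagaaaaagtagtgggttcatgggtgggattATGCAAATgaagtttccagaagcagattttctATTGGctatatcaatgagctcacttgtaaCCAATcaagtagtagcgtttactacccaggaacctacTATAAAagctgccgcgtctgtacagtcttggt

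Both stretches held the box TATAAA beginning 32 bases before the start and the octamer ATTTGCAT on the opposite strand. Over the 250 bases before each start, CCAAT was found in 33.8% of all 32851 promoters and for 82.0% of the 61 histone genes with an entry. TATAAA was found in 12.4% and 47.5%, and ATTTGCAT in 1.60% and 23.0%. The partners of a pair did not share their level. Hist1h2aa stood at 48.6 beside 5.04 FPKM for Hist1h2ba in Aged + Unsorted 2, at 16.9 beside 0 in LRP1high 1, and at 0 beside 15.5 in Aged 1. Hist1h2bc stood at 60.4 beside 2.95 for Hist1h2ac in Aged 2, and at 19.5 beside 38.4 in LRP1high 2.

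Differences between groups were tested with limma on log2(FPKM + 1), and calls required a fold above 1.5 and a Benjamini-Hochberg adjusted p under 0.05 over all genes tested. The scale understates changes of genes near 0. In oocytes 28004 genes and 58 of the 69 histone genes had a mean of at least 1 FPKM and were tested. Since 17 of the 69 reached that mean over the 8 rich libraries, many passed through the 4 poor ones. Comparisons with Aged share its 2 libraries, of which 1 was poor in oocyte RNA.

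For Aged against Young oocytes, the effect of age, 0 of the 58 histone genes were called, beside 0.0964% of all genes. At an unadjusted p under 0.05 there were 2, both higher in Aged, Hist1h2ah and Hist1h4d, beside 8.43% of all genes higher. The median log2 change was 0.56 over the histone genes tested and 0.94 over all genes. Hist1h2ah was at 4.07, 0 and 2.66 FPKM in Young and at 24.7 and 19.5 in Aged, without overlap (log2 change 3.11, SE 0.77, limma adjusted p = 0.115). The count was 15 higher without Aged 2, beside 33.0% of all genes higher, and 1 higher each without Aged 1 and without Young 1, beside 3.78% and 2.72%. Without the 4 poor libraries 3 of 17 were called higher, Hist2h3b, Hist2h3c1 and Hist2h3c2, all on the single Aged library left, beside 7.50% of all genes higher. Their means over the other 7 rich libraries were 0, 0.189 and 0.250 FPKM, so all 3 passed the filter only through that library, Aged 2.

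For Aged + Unsorted against Aged oocytes, 0 of 58 were called by limma, and 0% of all genes. At an unadjusted p under 0.05 there was 1 higher, Hist1h1a, and 4 lower, beside 1.70% of all genes higher and 7.04% lower. Hist1h1a, at 11.0 and 10.6 FPKM against 0 and 0, had a log2 change of 3.56 (SE 0.82, adjusted p = 0.102). The medians were -0.41 over the histone genes and -0.86 over all genes. The count was 15 without Aged 2, of which 14 were lower, beside 35.6% of all genes lower, and 2 lower without Aged 1, beside 3.69%. Without the 4 poor libraries 2 of 17 were called lower, Hist2h3b and Hist2h3c1, again 2 genes that passed only through Aged 2, beside 7.25% of all genes lower.

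For Aged + LRP1high against Aged oocytes, 1 histone gene fell, Hist1h2ah, beside 0.753% of all genes lower. It was at 24.7 and 19.5 FPKM in Aged and at 0.120, 0 and 0.232 in Aged + LRP1high. The groups did not overlap, and the Aged values rest on 38.5 and 41.6 reads of 150 bases, so that the log2 change was -4.36 (SE 0.77, adjusted p = 0.0439). In the other oocyte groups it was at 0.582 and 2.88 in Aged + Unsorted and 8.12 and 10 in Aged + LRP1low. The call was lost without any 1 of the 3 LRP1high libraries, where the count was 0 of the histone genes and of all genes. It was 3 lower without Aged 1, beside 4.56% of all genes lower, and 20 lower without Aged 2, beside 38.7%. Without the 4 poor libraries, which left Aged 2 alone in its group, 3 of 17 were called lower, beside 7.77% of all genes lower. They were the same 3 Hist2 genes that passed only through Aged 2, and Hist1h2ah was not called. The medians were -1.20 over the histone genes and -1.05 over all genes.

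For Aged + LRP1low against Aged oocytes, 3 of 58 histone genes rose, beside 3.09% of all genes higher. Hist1h2ak, an H2A gene, was at 10.2 and 9.56 FPKM in LRP1low and 0 in both Aged libraries (log2 change 3.44, SE 0.61, adjusted p = 0.0421). Hist1h2bf, an H2B gene, was at 6.26 and 9.93 against 0 and 0, and Hist1h3a, an H3 gene, at 7.09 and 6.04 against 0.0971 and 0, with log2 changes of 3.16 and 2.85 and the same adjusted p. Against values at 0 such a change depends on the 1 added to FPKM. Each LRP1low value rests on 5.97 to 13.7 reads. All 3 were at 0 to 1.56 FPKM in the other 8 oocyte libraries. Their means over the 10 libraries outside LRP1low were 0.0553, 0.181 and 0.147, so all 3 passed the filter only through the LRP1low libraries. These are the libraries in which 97.1% and 83.6% of olfactory receptor genes were listed at 1 FPKM or more, and that signal's part in the rise was not tested. The count was 17, of which 15 were higher, without Aged 1, beside 20.9% of all genes higher. It was 0 without either LRP1low library, where Hist1h2bf was still tested without LRP1low 1 and the others had fallen below the filter.

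For Aged + LRP1high against Aged + LRP1low oocytes, 21 of 58 histone genes fell and none rose, beside 24.8% of all genes lower and 1.21% higher. Of the 21, 16 had a mean under 1 FPKM over the 10 libraries outside LRP1low and so passed the filter only through the LRP1low libraries. The exceptions were Hist1h2ah, Hist1h2aj, Hist1h2ao, Hist1h2bp and Hist2h3c2. The 21 were 7 H2A, 7 H2B, 4 H3, 2 H4 genes and the H1 gene Hist1h1t. The largest changes were those of Hist1h2bm (-3.76, SE 0.85), Hist1h2ak (-3.44, SE 0.55), Hist1h4n (-3.34, SE 0.78), Hist1h2bp (-3.29, SE 0.96) and Hist1h2ah (-3.17, SE 0.77), with limma adjusted p of 0.0192 to 0.0365. Hist1h2bm was listed at 0 in all 3 LRP1high libraries and at 7.62 and 20.3 FPKM in LRP1low. The medians were -2.20 over the histone genes and -1.89 over all genes. Of the 10 oocyte markers 10 had a higher mean in LRP1high and 3 were called higher. Of 9 granulosa cell markers tested 8 had a lower mean and 4 were called lower, beside 115 of 362 olfactory receptor genes called lower. The groups thus also differed in cell markers, whose part was not tested. The count was 0 without any 1 of these 5 libraries. All 21 were still tested without an LRP1high library, where 0% of all genes were lower, and 14 and 15 of them without LRP1low 1 and 2, beside 1.39% and 0% of all genes lower. After quantile normalization 1 was lower and none higher, beside 1.99% of all genes lower and 0.528% higher.

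**Figure D5:**
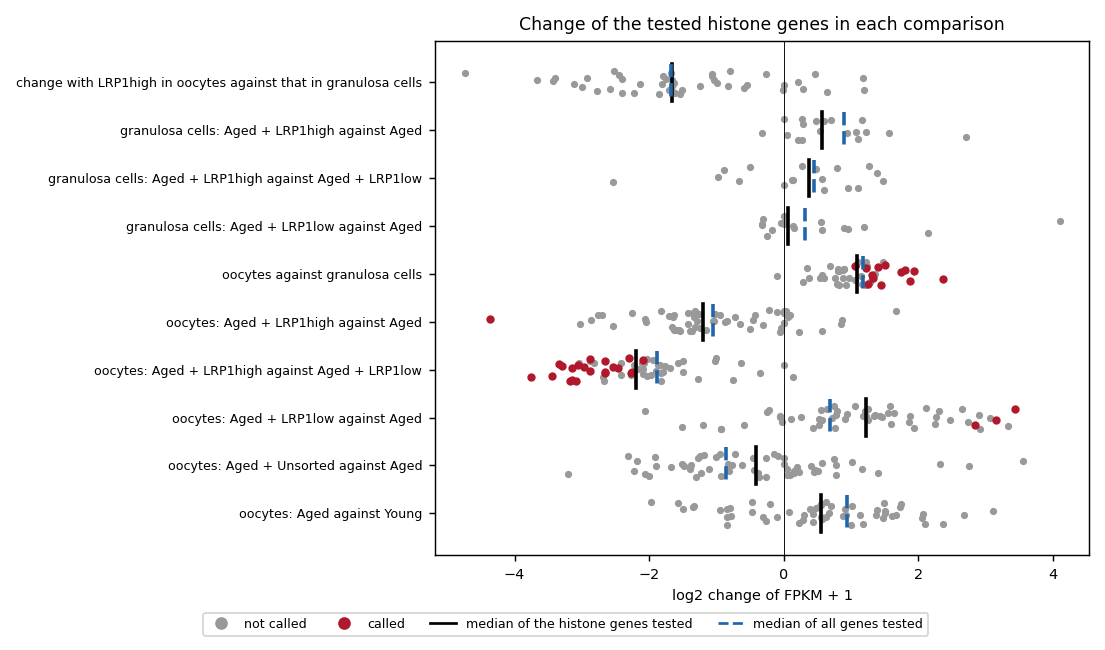
Log2 change of FPKM + 1 (horizontal axis) of each histone gene tested, 1 row a comparison, with called genes in red, the median of the histone genes as a black bar and the median of all genes tested as a dashed bar. The histone median and the all-gene median lie on the same side of 0 in each row, at -2.20 and -1.89 for LRP1high against LRP1low oocytes and at 1.21 and 0.68 for LRP1low against Aged oocytes.

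In granulosa cells 18 of the 69 histone genes were tested among 13002 genes, and the groups of 1 library entered no comparison. For LRP1high against Aged, LRP1low against Aged and LRP1high against LRP1low, limma called 0 of 18 and 0% of all genes. No histone gene had an unadjusted p under 0.05 in any of the 3, beside 8.51%, 3.79% and 5.15% of all genes. The median log2 changes were 0.57, 0.07 and 0.38 over the histone genes and 0.89, 0.31 and 0.45 over all genes. The largest single changes carried wide errors, as for Hist1h2bc in LRP1low against Aged (4.10, SE 2.52, adjusted p = 0.904) and Hist1h1c in LRP1high against Aged (2.71, SE 1.67, adjusted p = 0.460). These counts were 0 without each library in turn. The Aged granulosa cell libraries had granulosa cell marker medians of 0.0482 and 0.111, so whether they held granulosa cell RNA is uncertain.

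Oocytes were compared with granulosa cells over Aged, Aged + LRP1high and Aged + LRP1low at equal weight. Of 46 histone genes tested 13 were higher in oocytes and none lower, beside 31.8% of all genes higher. Of the 13, 11 had a mean under 1 FPKM over the 9 granulosa cell libraries and so passed the filter only through the oocyte libraries. The exceptions were Hist1h2ao and Hist1h2bk. Hist1h2bk was at 6.25 FPKM in the library labelled granulosa Aged + Unsorted, which is rich in oocyte markers, and at most 1.00 in the other granulosa cell libraries. Its mean over those others was also under 1. Hist1h2ah had the largest change (2.37, SE 0.43, adjusted p = 0.00234), followed by Hist1h2ac (1.94, SE 0.65), Hist1h3h (1.87, SE 0.68), Hist2h3c2 (1.81, SE 0.52), Hist1h2bj (1.74, SE 0.56), Hist1h2bk (1.502, SE 0.53), Hist1h3b (1.44, SE 0.51), Hist1h1t (1.40, SE 0.45), Hist1h2aj (1.33, SE 0.42) and Hist1h2bm (1.31, SE 0.46). The rest were Hist1h2ao, Hist1h2ad and Hist1h2ak. In this contrast oocyte Aged 1 and both oocyte LRP1low libraries were poor in oocyte RNA, whose part in the calls was not tested. Over the 8 rich libraries Hist1h1t (mean 0.0573 FPKM), Hist1h2bm (0.0151) and Hist1h2ak (0) lay below their granulosa cell means (0.145, 0.204 and 0.128). So did Hist1h3b, Hist1h3h, Hist1h2ao and Hist1h2ad, while the other called genes lay above theirs. The most abundant members, Hist1h2bc (0.81, SE 1.20) and Hist1h1c (-0.10, SE 0.73), were not called. The medians were 1.09 over the histone genes and 1.18 over all genes. After quantile normalization, which removed the all-gene shift (median 0.04), no histone gene was called higher and 1 lower. The count was 31 without oocyte Aged 2, beside 60.6% of all genes higher. Without another library in turn, where 15.2% to 34.3% of all genes were higher, it was 8 without oocyte Aged 1, 8 and 7 without oocyte LRP1high 1 and 2, 2 and 3 without oocyte LRP1low 1 and 2, 2 without either granulosa Aged library, 6 and 8 without granulosa LRP1high 2 and 3, 2 and 4 without granulosa LRP1low 1 and 2, 12 without oocyte LRP1high 3 and 11 without granulosa LRP1high 1. It was 13 without the library labelled granulosa Aged + Unsorted, beside 31.6% of all genes higher.

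The change with LRP1high against Aged was also compared between the cell types. None of 46 histone genes and 0% of all genes were called by limma, with 8 histone genes lower in oocytes at an unadjusted p under 0.05, beside 15.8% of all genes lower. The largest difference was that of Hist1h2ah (-4.74, SE 1.01, adjusted p = 0.0757). The count was 19 lower without oocyte Aged 2, beside 35.3% of all genes lower, and 2 lower without oocyte Aged 1, beside 3.23%. Without the 4 poor oocyte libraries, Aged 2 was the single Aged oocyte library. Hist1h2ah and Hist2h3c2, the histone genes called lower there, had log2 differences of -4.58 and -4.57. They were at 19.5 and 17.0 FPKM in Aged 2, and both passed the filter of that fit only through this library.

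The list of histone mRNA processing and histone supply held 22 genes, of which 16 were higher in oocytes than in granulosa cells, beside 31.8% of all genes. Slbp, which binds the stem-loop, had the largest change (4.07, SE 0.87), followed by Lsm10 (3.68, SE 1.17) of the histone pre-mRNA processing complex, the histone chaperone Nasp (3.64, SE 0.86), the chaperone Dnajc9 (3.57, SE 0.65) and Chaf1a (3.38, SE 0.64) of chromatin assembly factor 1. Slbp was at 49.9 to 571 FPKM in the 8 rich oocyte libraries and at 5.37 to 20.4 in the poor ones. For LRP1high against LRP1low oocytes 2 of the 22 were higher, the chaperone Asf1a (5.40, SE 1.21) and Dnajc9 (4.43, SE 1.19). The cap-binding protein gene Ncbp1 (-2.16, SE 0.68) was lower, beside 1.21% of all genes higher and 24.8% lower. Asf1a was at 71.6 to 343 FPKM in the rich oocyte libraries and 3.85 to 16.5 in the poor ones, and Dnajc9 at 0 to 110 and 1.49 to 13.8. All LRP1high libraries were rich and both LRP1low libraries poor, so treatment and that split cannot be told apart here. In the other 8 comparisons none of the 22 was called.

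Replication-independent variant histones can be made outside S phase. H1foo, H3f3b, Cenpa and H2afz had a highest value above 269.7 FPKM, the highest of any of the 69 genes, while H3f3a, H2afx, H1fx and H2afj did not. H1foo, the oocyte linker histone, is among the 10 oocyte markers whose median parted the rich from the poor libraries. Its levels in rich and poor libraries were therefore partly fixed by that split. They were 113 to 3437 FPKM in the rich oocyte libraries and 2.18 to 49.5 in the poor ones. H1foo was at 2243 in the library labelled granulosa Aged + Unsorted and at most 17.1 in the other granulosa cell libraries. H3f3b, which encodes H3.3, was at 182 to 640 FPKM in the rich oocyte libraries and 4.89 to 16.3 in the poor ones, and H3f3a, the other H3.3 gene, at 8.52 to 137 and 3.53 to 9.05. H2afz, which encodes H2A.Z, was at 0 to 83.5 in the rich ones. Of 12 variant genes, 5 were higher in oocytes than in granulosa cells, beside 31.8% of all genes: H1foo (5.63, SE 1.19), Cenpa (3.88, SE 1.01), H2afx (3.28, SE 0.94), H2afj (2.96, SE 0.76) and H1fx (2.54, SE 0.58). H1foo was the variant called in LRP1high against LRP1low oocytes (7.32, SE 2.32), higher like 1.21% of all genes. All LRP1high libraries were rich and both LRP1low libraries poor by markers that include H1foo, so this call is no separate finding. No variant was called in the other 8 comparisons.

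Of 18 S phase genes 13 were higher in oocytes than in granulosa cells, beside 31.8% of all genes, led by the replicative helicase subunits Mcm2 (3.68, SE 0.53) and Mcm7 (3.46, SE 0.49), then Tyms (3.16, SE 0.72), Rrm2 (3.14, SE 0.86) and E2f1 (2.84, SE 0.67). Pcna, the DNA polymerase clamp, was higher in LRP1high than in LRP1low oocytes (4.15, SE 1.38, limma adjusted p = 0.0481). It was at 126, 139.7 and 42.5 FPKM against 4.13 and 4.23, again beside 1.21% of all genes higher. All LRP1high oocyte libraries were rich in oocyte RNA and both LRP1low libraries poor. Pcna was at 42.5 to 169 FPKM in the 8 rich oocyte libraries and at 3.66 to 4.23 in the 4 poor ones. A change with treatment thus cannot be told apart from that split. In granulosa cells Pcna was at 481 in Young, 0.462 and 0.143 in the Aged group, 0, 0.914 and 92.3 in Aged + LRP1high and 76.0 and 7.67 in Aged + LRP1low. The 18 S phase genes summed to 706 FPKM in granulosa Young, which the comparison with oocytes left out, and to 50.1 to 516 in oocyte libraries. Their median was 9.29 in granulosa Young and 0.504 to 23.0 in oocyte libraries. In the granulosa Aged libraries the sums were 4.63 and 4.45, and 2734 and 2089 of all genes reached 1 FPKM there. No S phase gene was called in the other 8 comparisons.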

How the data were processed

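Per the labels, polyA RNA of oocytes and granulosa cells was extracted with a PicoPure kit and made into libraries with a KAPA Stranded kit, while the paper's methods name Smart-seq2. The submitters' processing notes name HISAT2 2.2.1, StringTie 1.3.3b and mm9, but the identifiers and coordinates in the files are those of GENCODE for GRCm38. The authors deposited FPKM, TPM and coverage for each gene. FPKM is scaled by transcript length and library total. TPM is scaled likewise to a common library sum. Coverage, as deposited, is the average depth of reads along a gene. No counts were used. How reads that match several histone genes were shared out is not given in the sources used here. FPKM of 4 to 21 repeated identifiers in a file was summed, none of them a histone gene.

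Reads behind a value were computed for 63 histone genes with 1 exon as coverage times length over 150 bases, the most frequent total on single-exon genes in all 21 libraries. Such numbers cover counting error only. The test was limma 3.58.1 (lmFit, then eBayes; R 4.3.3) on log2(FPKM + 1) for genes averaging 1 FPKM or more across the fitted libraries. One model held every group of a cell type, and another all 10 groups for comparing the cell types. Calls used the paper's criteria, a fold over 1.5 and a Benjamini-Hochberg adjusted p under 0.05. The test was tried on simulated data. Named genes were, for each histone type, the 3 with the highest mean in each cell type, up to 10 called a direction and comparison, and Hist1h1t, Hist1h2aa and Hist1h2ba, plus Slbp, H1foo, H3f3a, H3f3b, H2afz, Pcna and up to 5 called genes of each further list. Others named are said to be so, or show a single library's highest value, and were chosen after their values were seen. The histone genes and all lists were chosen with earlier results of these data known. The marker lists were 10 genes for oocytes, 10 for granulosa cells, 6 for luteal cells, 6 for stroma, 7 for immune cells, 4 for endothelium and 5 for red blood cells. Alternatives were another pseudocount, no filter, TPM, quantile normalization, a replicate block, each library left out, and 2 sets of doubtful libraries left out.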

Additional observations from a re-analysis of the deposited data

Results flagged for a closer look

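The granulosa cell groups Young and Aged + Unsorted had 1 library each and entered no comparison, and histone genes at 10 FPKM or more that lay above both Aged granulosa cell libraries were looked up in them. In granulosa Young these were Hist1h2bc at 44.3 FPKM, Hist1h1c at 33.8, Hist1h2ao at 13.2 and Hist1h2ap at 10.3. In the library labelled granulosa Aged + Unsorted they were Hist1h2aa at 47.0, Hist1h2bc at 28.1 and Hist1h2al at 22.6, beside 48.6, 36.9 and 24.0 in oocyte Aged + Unsorted 2. With 1 library a group these differences were not tested. No group had 4 libraries or more, so single outlying libraries were not tested either.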

How the results depend on the processing

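Counts of histone genes called are given for limma throughout. With another pseudocount, no filter, TPM or a replicate block they stand without a share of all genes. Those counts only show how the calls depend on the setting. With a pseudocount of 0.1 they were 0 for LRP1high against Aged, LRP1low against Aged and LRP1high against LRP1low oocytes and 6 for oocytes against granulosa cells. With no filter on low values they were 2 for Unsorted against Aged, 12 for LRP1low against Aged, 33 for LRP1high against LRP1low, and 1 for the change with LRP1high compared between the cell types. With TPM these were 1, 12, 33 and 1, and 32 for oocytes against granulosa cells. After quantile normalization the count was 0 for LRP1high against Aged, beside 0.0286% of all genes. It was 1 each for LRP1low against Aged, LRP1high against LRP1low, oocytes against granulosa cells and the change compared between the cell types. Beside these, 0.814%, 2.51%, 3.75% and 0.0965% of all genes were called. With that normalization Hist1h2ai (0.0289) and Hist1h2bn (0.0264) turned from lower to slightly higher on the log2 scale in LRP1high against LRP1low. Leaving out one library at a time gave 0 to 15 for Aged against Young, 0 to 15 for Unsorted against Aged, 0 to 20 for LRP1high against Aged, 0 to 17 for LRP1low against Aged, 0 each time for LRP1high against LRP1low, 2 to 31 for oocytes against granulosa cells and 0 to 19 for the change compared between the cell types. An arm left with 1 library was assumed to vary like the other groups. Without the 4 oocyte libraries poor in oocyte RNA, a choice made after seeing the data, the counts were 3 for Aged against Young, 2 for Unsorted against Aged, 3 for LRP1high against Aged and 2 for the change compared between the cell types, and comparisons with LRP1low could not be fitted. The granulosa cell comparisons had 0 under every alternative. The causes were not tested. At 0.278 to 3.40 gigabases a library, values near 1 FPKM rest on few reads.

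Over all genes, 27 were called for Aged against Young, 0 for Unsorted against Aged, 216 for LRP1high against Aged, 887 for LRP1low against Aged, 7291 for LRP1high against LRP1low and 6951 for oocytes against granulosa cells. With no filter these were 863, 864, 1110, 11806, 22985 and 11177, with TPM 876, 813, 1097, 7488, 19494 and 17875, and after quantile normalization 6, 5, 8, 228, 704 and 817. With a pseudocount of 0.1 or a replicate block they were 0 in each oocyte comparison. For the change compared between the cell types, 0 genes became 1118 with no filter, 1000 with TPM and 21 after quantile normalization. Summed histone levels were 527 TPM in Aged, 304 in Aged + Unsorted, 116 in Aged + LRP1high and 686 in Aged + LRP1low oocytes.

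A replicate block gave 0 histone genes in the oocyte comparisons and 10 for oocytes against granulosa cells. Deviations of same-numbered libraries from their group means correlated at -0.44 to 0.44 over 21 pairs of oocyte libraries and -0.08 to 0.26 over 6 pairs of granulosa cell libraries. In a group of 2 libraries the deviations mirror each other, so these pairs are not independent. Whether the replicate numbers pair the samples therefore cannot be told from them.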
